A study of Homo sapiens with 6 samples.

Results

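Cells make cholesterol and fatty acids from the same starting material, cytosolic acetyl-CoA. The sterol route runs through mevalonate and isoprenoid units to squalene, closes squalene into lanosterol, and then trims and reduces lanosterol to cholesterol. The fatty acid route builds palmitate and then lengthens, desaturates and activates it. Many enzymes of both routes are induced by the sterol regulatory element-binding proteins (SREBPs), membrane-bound transcription factors that SCAP escorts to the Golgi when sterols are low and that INSIG proteins hold back in the endoplasmic reticulum when sterols are high.

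The genes described here are 33 members of these pathways, listed by symbol as SREBP targets and regulators and looked up in the gene table by Ensembl ID with the version dropped. Of the 33, 31 were found among the 13449 genes of the table. These were 17 of 18 sterol synthesis enzymes, 8 of 9 fatty acid synthesis enzymes, and 6 of 6 genes of another group that holds the SREBP genes, SCAP, the INSIG genes and the sterol carrier STARD4. No row carried the ID that the reference gives for TM7SF2, which encodes a sterol reductase of the lanosterol branch, or for ACACA, which encodes the acetyl-CoA carboxylase that makes malonyl-CoA. No gene of the table had a mean under 23.1 normalised counts, so a missing row is not evidence that a gene was silent. The reference gave no symbol for 288 of the IDs, and a listed gene that the table holds under an older ID would count as not found here. This may be the case for ACACA, and the fatty acid median would then lack a gene that the table holds.

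RNA came from SK-MEL-28, a human melanoma cell line. The cells were transfected, using a lipid reagent, with an siRNA against the long non-coding RNA DANCR in the siDANCR group (3 libraries) or with a control siRNA in the control group (3 libraries), and the study's methods have cells harvested 3 days later, so every library came from transfected cells. The table gives 1 measured value for each gene outside the authors' own comparison, which is the authors' mean of the depth-normalised counts over all 6 libraries of both groups together. It holds no value for a single library or group. The levels below therefore describe transfected SK-MEL-28 cells as a whole, carry no replicate error, and say nothing about whether a gene differed between siDANCR and control. Depth per library could not be read from the table. The study's methods give RPMI medium with foetal bovine serum, while the sample labels give DMEM, so the lipid supply of the cells is not settled here.

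The label of the cells was checked against lineage genes. Of 8 melanocyte lineage markers, 7 were in the table and all 7 lay in the top 10% of genes, from 1219 (TYR) to 11535 (PMEL) mean normalised counts per kb, while TYRP1 had no row. Of 11 markers of keratinocytes, immune cells, endothelium and hepatocytes, 2 were in the table, CD68 at 39.8 and VWF at 2.75 per kb. DANCR itself had an authors' mean of 425.9 normalised counts (107.6 per kb). The study reports that the siRNA lowered DANCR, so for this gene the mean over both groups describes neither group.

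Long transcripts collect more reads than short ones, so each gene's mean was divided by the length of its canonical transcript in kilobases, and this value is termed its level. Orders and ratios between genes depend on the divisor. A range beside a ratio is over 5 divisors: canonical transcript, coding sequence, longest annotated transcript, none, and the number of 150-base windows (the read length that the study's methods give) that lie inside 1 exon. These ranges, and the windows, were added after seeing the data. Among the 13161 genes with a length the median level was 111.4 per kb and the top 10% began at 609.8 per kb. The levels of the 31 genes spread over a 191-fold range, from ACAT2 at 30.1 to SCD at 5749 per kb of canonical transcript, with a median of 302.9 per kb. ACAT2 and SCD are both among the members whose level is uncertain, as described further on. Per kb of windows inside 1 exon the ends were other genes, ELOVL6 at 61.8 and FASN at 8035. Of the 31, 25 were above the median of all genes, a position that 50% of all genes hold by construction, and 7 were in the top 10%.

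Fatty acid enzymes stood higher than sterol enzymes in these cells. Their median level was 761.7 per kb over 8 genes, against 202.0 per kb over 17 sterol enzymes, a ratio of 3.77. Summed over genes, the fatty acid enzymes took 0.437% of all normalised counts of the table and the sterol enzymes 0.0871%. These sums are not divided by length, and the median transcript length was 4804.5 bases for fatty acid enzymes and 2227 for sterol enzymes. The groups overlapped: 4 of 8 fatty acid enzymes were above the highest sterol enzyme, and ELOVL6 and FADS2 were among the lowest of all members. SCD and FASN alone held 76.7% of the fatty acid sum, and the median of the other 6 was 555.9 per kb. Genes of a list are not replicates, and the difference between the lists was not tested. The ratio was 1.65 without the 6 members whose coding sequence has a close copy elsewhere or whose transcript overlaps another gene by at least 25%, described further on, a setting added after seeing the data.

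**Figure D1:**
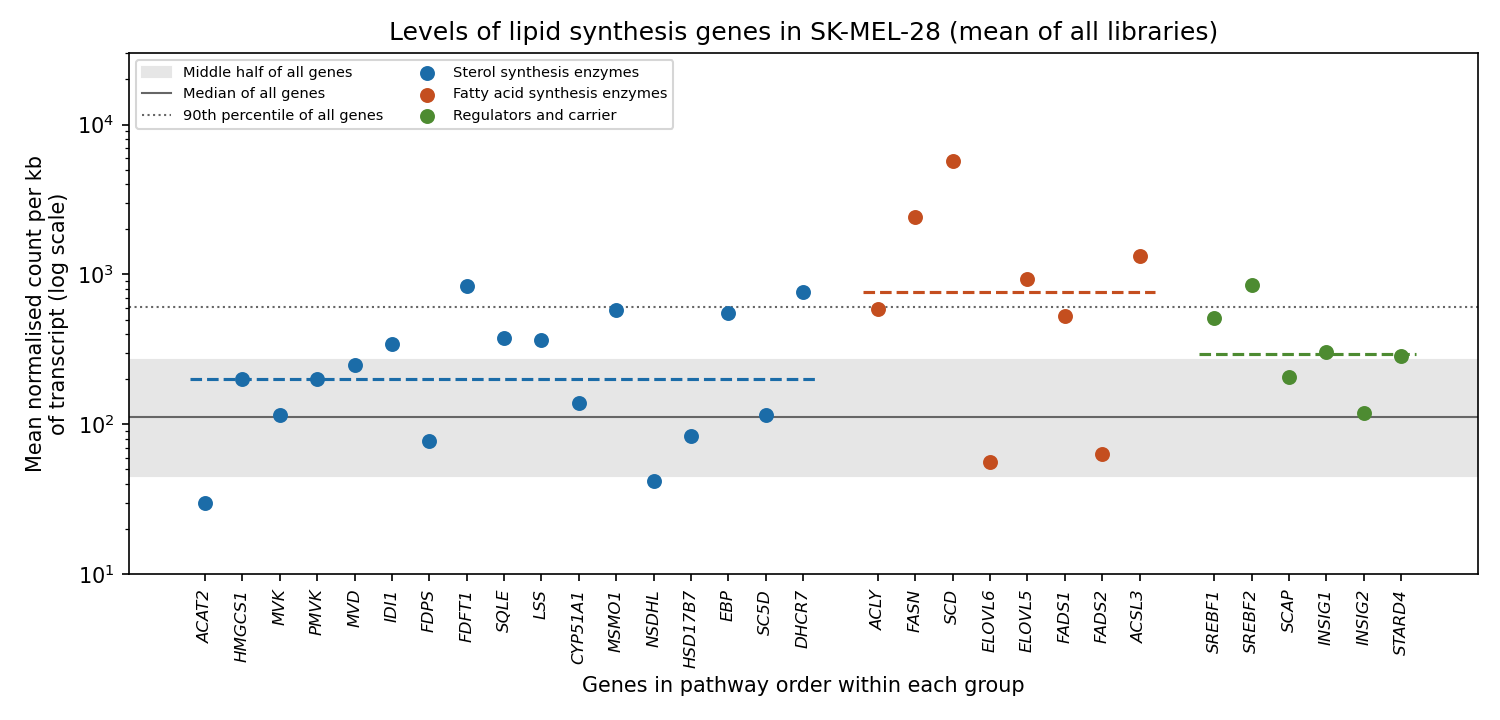
Mean normalised count per kb of canonical transcript (log scale) for the 31 genes, in pathway order within each group, 1 point per gene as the authors' mean over all 6 libraries. Dashed lines are group medians (202.0 sterol, 761.7 fatty acid, 293.8 regulators and carrier), the grey band is the middle 50% of all genes, and SCD, FASN and ACSL3 are the highest points.

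At the entry of the fatty acid route, ACLY, which splits cytosolic citrate into acetyl-CoA, stood at 585.9 per kb (authors' mean 2515 normalised counts). FASN, the multifunctional synthase that assembles palmitate, was at 2407 per kb (authors' mean 20377), 4.11 times the level of ACLY (range 3.18 to 8.10). ACACB, which encodes the mitochondrial carboxylase and was on the list of related genes, was at 67.9 per kb. ACSS2, a second source of cytosolic acetyl-CoA that uses acetate, was at 133.0 per kb.

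SCD, the desaturase that places the first double bond in stearate and palmitate, had the highest level of all members per kb of transcript. Its authors' mean was 30155 normalised counts, or 5749 per kb, at the 99.4th percentile of all genes, and the gene alone took 0.2002% of the counts of the table. Its level was 2.39 times that of FASN per kb of transcript. The transcript of SCD is 5245 bases long with 1077 coding bases, so per kb of coding sequence the ratio to FASN was 10.4, and with no length scaling it was 1.48. Per window inside 1 exon the order turned, with a ratio of 0.859, so which of the pair stood higher depended on the divisor. SCD5, the other human stearoyl-CoA desaturase gene, was at 115.6 per kb, and SCD stood 49.7 times above it (range 45.4 to 85.8).

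The elongases and the front-end desaturases were unequal within each family. ELOVL5, which lengthens polyunsaturated chains, was at 937.4 per kb and ELOVL6, which extends palmitate to stearate, at 56.4 per kb, a ratio of 16.6. The ELOVL6 transcript holds 6570 bases with 795 coding bases, and per kb of coding sequence the ratio was 6.20 (range 6.20 to 23.6). The other elongase genes of the table ranged from ELOVL4 at 16.5 and ELOVL3 at 23.4 through ELOVL7 at 78.8 and ELOVL2 at 222.5 to ELOVL1 at 639.0 per kb. FADS1, the delta-5 desaturase of polyunsaturated fatty acids, was at 525.9 per kb and FADS2, the delta-6 desaturase, at 63.6 per kb, a ratio of 8.27 (range 6.79 to 13.6). The neighbouring paralog FADS3 was at 218.7 per kb.

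ACSL3, which activates long-chain fatty acids to acyl-CoA and is known for its place on lipid droplets and the endoplasmic reticulum, was at 1319 per kb (authors' mean 7357). Its paralogs ACSL1 (344.9 per kb) and ACSL4 (191.2 per kb) were 3.82 (range 2.69 to 5.75) and 6.90 times (range 6.63 to 7.87) lower, and ACSL5 and ACSL6 were not among the rows. Without ACSL3 and ACAT2, the members at the borders of their routes, the ratio of the fatty acid to the sterol median was 2.60.

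The mevalonate steps had a median of 199.3 per kb over 7 genes. ACAT2, the cytosolic thiolase that makes acetoacetyl-CoA, was at 30.1 per kb (authors' mean 45.8), the lowest member per kb of transcript. HMGCS1, which adds the next acetyl unit to give HMG-CoA, was at 202.0 per kb. The kinases MVK and PMVK, which phosphorylate mevalonate in turn, were at 116.0 and 199.3 per kb, and the decarboxylase MVD, which makes isopentenyl diphosphate, was at 247.9 per kb. IDI1, the isomerase of isopentenyl diphosphate, was at 343.1 per kb. FDPS, which joins the isoprenoid units into farnesyl diphosphate, was at 77.6 per kb. IDI1 was 4.42 times above FDPS per kb of transcript and 12.6 times per kb of coding sequence, but 0.620 times as high per window inside 1 exon, so the order of this pair is not settled by these values. GGPS1, which makes geranylgeranyl diphosphate from the product of FDPS, was at 169.1 per kb.

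The steps from farnesyl diphosphate to lanosterol had a median of 377.3 per kb over 3 genes, above both other stretches of the sterol route per kb of transcript. Per kb of coding sequence their median was 818.5, below the 878.9 of the steps after lanosterol. FDFT1, the squalene synthase and first enzyme committed to sterols, was at 837.7 per kb (authors' mean 1705), the highest sterol enzyme per kb of transcript, though DHCR7 was above it per kb of coding sequence, per kb of the longest transcript and with no scaling. SQLE, the squalene epoxidase, was at 377.3 per kb and LSS, which closes the ring system, at 367.9 per kb.

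From lanosterol to cholesterol, 7 genes had a median of 139.1 per kb and an 18.2-fold range. CYP51A1, the lanosterol demethylase, was at 139.1 per kb. Of the enzymes that remove the C4 methyl groups, the oxidase MSMO1 was at 576.3 per kb while the dehydrogenase NSDHL was at 42.0 and the ketoreductase HSD17B7 at 83.9 per kb. EBP, the sterol isomerase, was at 555.7 per kb, SC5D, the C5 desaturase, at 115.0 per kb and DHCR7, which reduces 7-dehydrocholesterol to cholesterol, at 762.4 per kb. This reductase was 3.77 times above HMGCS1 near the start of the route (range 1.85 to 5.00), and HMGCS1 is among the members whose level is uncertain, as described further on. SOAT1, which esterifies cholesterol for storage, was at 306.6 per kb, and NPC1, which releases it from lysosomes, at 198.5 per kb.

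All 6 genes of the regulator and carrier group lay above the median of all genes per kb of transcript. SREBF2, which encodes the SREBP known mainly for sterol genes, was at 854.8 per kb (authors' mean 4477), and SREBF1, whose SREBP-1c product is known mainly for fatty acid genes, was at 513.3 per kb (authors' mean 2515). SREBF2 was thus 1.67 times above SREBF1 (range 1.53 to 1.79). The SREBF1 value is for the whole gene and does not separate the transcript of SREBP-1c from the others. SCAP was at 206.1 per kb. INSIG1, itself an SREBP target, was at 302.9 per kb and INSIG2 at 119.0 per kb, a ratio of 2.55 (range 1.69 to 2.72). STARD4, a carrier that moves cholesterol between membranes, was at 284.6 per kb. The proteases that free the SREBPs in the Golgi were both in the table, MBTPS2 at 430.4 and MBTPS1 at 179.7 per kb.

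The wider list of lipid genes held 37 genes that are paralogs, partners or neighbours of the members in metabolism. Of these, 33 were in the table, with a median of 189.4 per kb, 25 above the median of all genes and 1 (ELOVL1) in the top 10%. ABCA1 and ABCG1, sterol exporters that liver X receptors induce, were not among the rows. LPIN1, a phosphatidate phosphatase and SREBP target, was at 295.9 per kb.

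The rank of each member among all genes was compared under 4 scalings: per kb of the canonical transcript, per kb of coding sequence, per kb of the longest annotated transcript, and with no scaling. Of the 31, 22 were above the 50th percentile under all 4, and 5 (HSD17B7, FDPS, FADS2, NSDHL and ACAT2) were below it under all 4. The other 4 crossed it: ELOVL6 lay between the 30.4th and the 65.3rd percentile, PMVK between the 37.2nd and the 71.2nd, SCAP between the 45.8th and the 75.3rd, and MVK between the 44.4th and the 51.1st. With windows inside 1 exon counted as well, 20 were above on each scaling and 3 (FADS2, NSDHL and ACAT2) below on each.

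**Figure D2:**
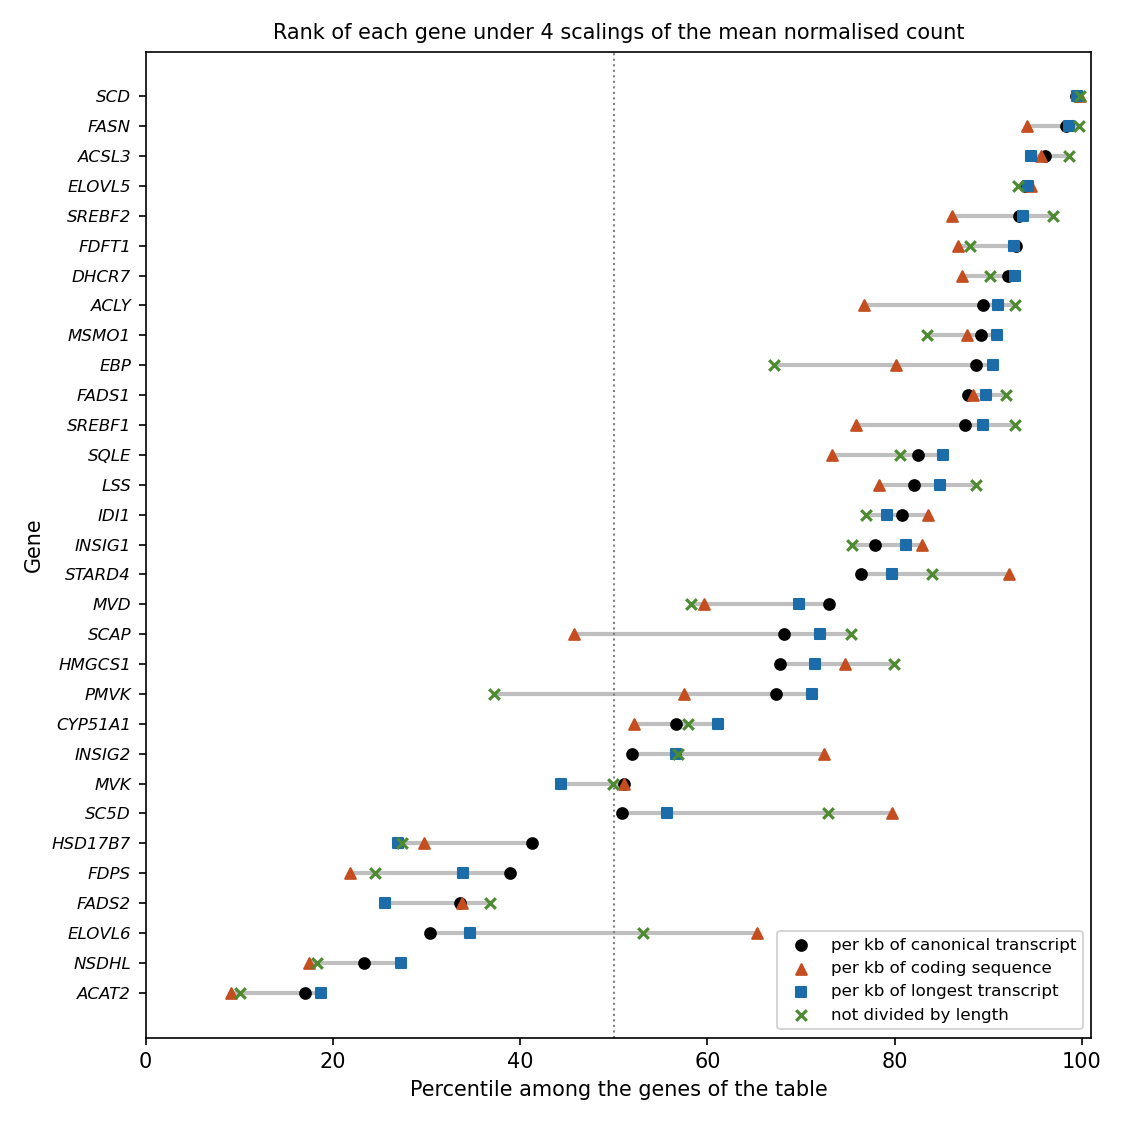
Percentile of each of the 31 genes among the genes of the table (horizontal axis) under 4 scalings of the authors' mean, 1 row per gene and 1 marker per scaling. Under these 4, SCD, FASN, ACSL3 and ELOVL5 stay above the 93rd percentile, and ELOVL6 has the widest span, from 30.4 to 65.3.

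Some members share their sequence with other places in the genome. The coding sequence of each member was searched in GRCh37, the build that the submitters' processing notes name as hg19, for matches of at least 90% identity outside the gene. There was none for 26 of the 31, and MSMO1 matched 1 place over 13.7% of its coding sequence. CYP51A1 matched a processed pseudogene, CYP51A1P2 on chromosome 13, over 99.5% of its coding bases at 97.5% identity, and a second one, CYP51A1P1 on chromosome 3, over 100% at 96.5% identity. SCD matched SCDP1 on chromosome 17 over 100% at 96.7% identity, HSD17B7 matched HSD17B7P2 on chromosome 10 over 83.2% at 98.6%, and FDPS matched 6 places over 84.1% to 86.1% at 90.2% to 92.7%.

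The pseudogenes of CYP51A1 and SCD are processed, that is, they hold the exons of the parent already joined. So are most of the FDPS places, while HSD17B7P2 is annotated as an unprocessed pseudogene, which keeps its introns. The aligner named in the notes, Bowtie 1.1.2, places reads without gaps. Where it aligns to the genome, a 150-base read across an exon junction has no continuous place in the gene's own sequence. Such a read can have one in a processed pseudogene. Aligned to spliced transcripts, it would have a place in its own gene. The 60 coding bases around a junction of CYP51A1 and of SCD are shown with the same stretch of the pseudogene, 30 bases on each side of the junction, to let the closeness of the copies be seen. Capitals mark the bases that differ. The CYP51A1 stretch lies at chr7:91756819-91756848 and chr7:91755712-91755741 (GRCh37, minus strand), split by an intron of 1077 bases, and its copy is continuous at chr13:29297424-29297483 (minus strand), with 1 difference. The SCD stretch lies at chr10:102108074-102108103 and chr10:102112123-102112152 (plus strand), split by 4019 bases, and its copy is continuous at chr17:20688241-20688300 (plus strand), with 3 differences.
CYP51A1: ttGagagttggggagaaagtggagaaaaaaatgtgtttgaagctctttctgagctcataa
CYP51A1P2: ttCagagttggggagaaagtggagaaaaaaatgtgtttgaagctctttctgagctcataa
SCD: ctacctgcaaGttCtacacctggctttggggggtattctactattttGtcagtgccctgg
SCDP1: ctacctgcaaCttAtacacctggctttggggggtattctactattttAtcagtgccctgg

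The share of counts on the copies differed widely between the families. CYP51A1 had an authors' mean of 438.9 normalised counts, CYP51A1P2 339.9 and CYP51A1P1 160.8, so the gene held 46.7% of the 939.7 counts of the family and its pseudogenes the rest. HSD17B7 held 84.1% of its family with HSD17B7P2 at 24.3 counts, and SCD held 99.6% with SCDP1 at 107.0 counts. For the 6 places matched by FDPS, none of the genes or pseudogenes assigned to them had a row in the table. Other genes over the same bases were not looked up. Outside the lipid genes, the same table gave EEF1A1, a translation factor that is among the most abundant mRNAs of most cells, a mean of 3254. Its processed pseudogene EEF1A1P5 had a mean of 70118, which is 95.6% of the sum of both. This pair was chosen after its values were seen. No share over all such pairs was computed, so the pair says nothing about the members. Because of their close copies, the levels of CYP51A1, HSD17B7, FDPS and SCD are uncertain by the reads that alignment or counting could place on a copy. Whether any reads did so was not tested.

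**Figure D3:**
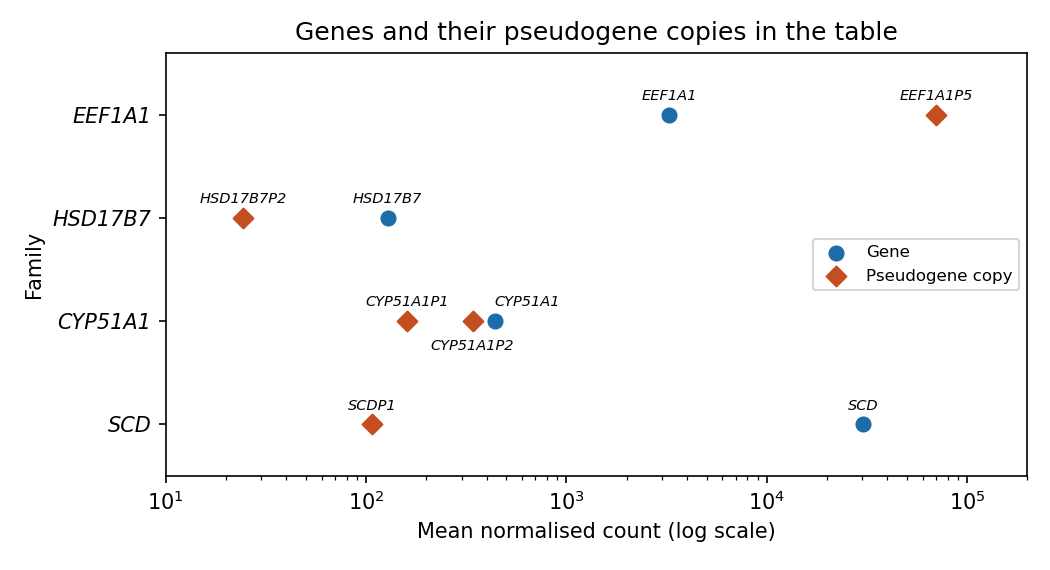
Authors' mean normalised count (log scale, horizontal) of CYP51A1, SCD and HSD17B7 and of their pseudogene copies, with the pair EEF1A1 and EEF1A1P5 for comparison, 1 point per gene. The pseudogenes of CYP51A1 lie close to the gene (339.9 and 160.8 against 438.9), SCDP1 lies far below SCD, and EEF1A1P5 lies above EEF1A1.

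Overlapping genes touched 10 of the 31 members, and 3 of them over at least 25% of the transcript. Annotated genes with an Ensembl number above the highest in the table were left out, and no share over all genes was computed. On the opposite strand, ACAT2 shared 29.9% of its transcript with TCP1, a chaperonin subunit gene with an authors' mean of 1116 counts, FDPS shared 41.4% with RUSC1-AS1 (mean 116.3), and HMGCS1 shared 46.7% with an unnamed gene, ENSG00000261604. The libraries marked strand, but no source used here says whether the counting used strand, and the levels of these members are uncertain for that reason too. FADS1 and FADS2, on opposite strands, shared 3.25% of the transcript of FADS1.

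Exon structure was examined next, since an ungapped read aligned to the genome fits a gene's own sequence only inside 1 exon. For reads aligned to spliced transcripts this limit would not apply. For each canonical transcript the share of 150-base windows inside 1 exon was counted. A window stands for a single read, while the libraries were paired-end, and the distance between the reads of a pair was not considered. FDPS had the lowest share of the members, 11.8%, followed by ACLY at 24.0%, ACAT2 at 25.1% and FASN at 30.5%, and SC5D and ELOVL6 had the highest at 93.6% and 93.3%. Across the 31 members level and share had a Spearman correlation of 0.051, across the 17 sterol enzymes 0.387, and across 11210 protein-coding genes with introns -0.051. These are descriptions across genes, which share the same libraries. Divided by the number of such windows in place of length, the ratio of the fatty acid to the sterol median was 3.43. On this scale 4 members that had kept to 1 side under the other 4 scalings crossed the 50th percentile. FDPS moved from the 38.9th to the 81.2nd and HSD17B7 from the 41.3rd to the 57.0th, while SC5D moved from the 50.9th to the 36.2nd and INSIG2 from the 51.9th to the 41.0th. ACAT2 moved from the 16.97th to the 37.7th and ELOVL6 from the 30.4th to the 21.4th.

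**Figure D4:**
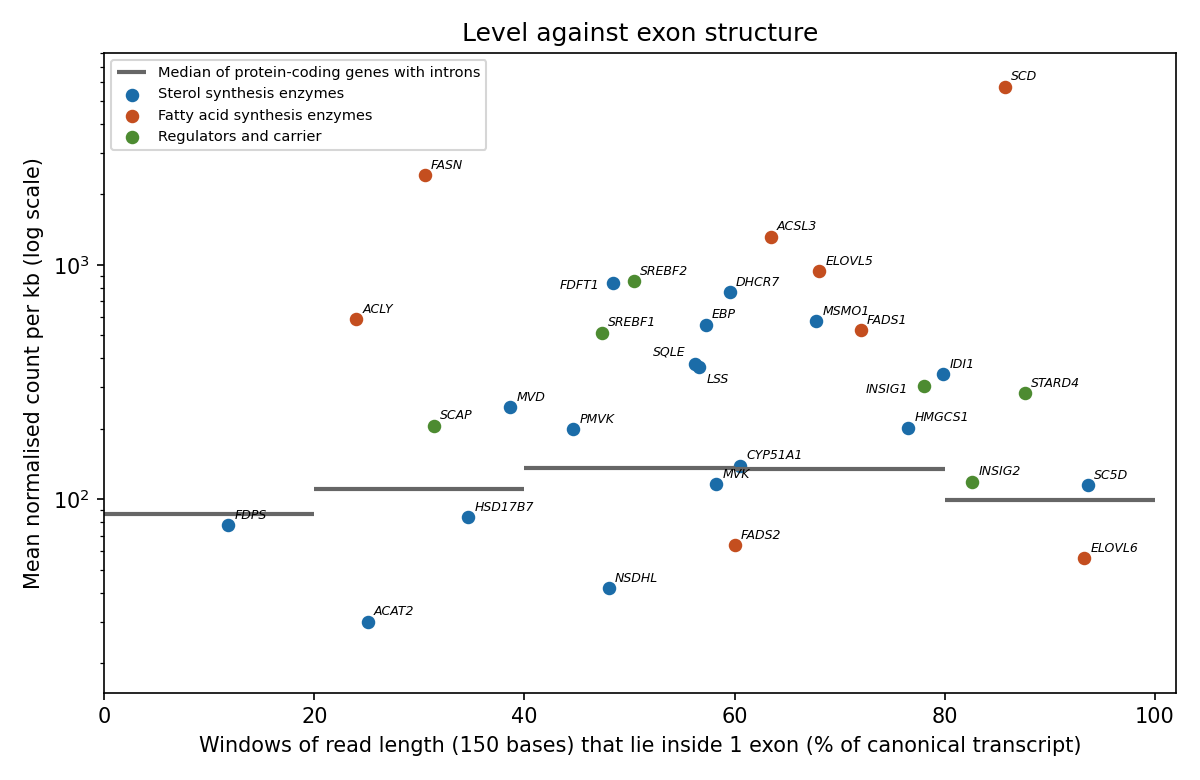
Mean normalised count per kb (log scale, vertical) against the percent of 150-base windows of the canonical transcript that lie inside 1 exon (horizontal), 1 point per gene, with the median of protein-coding genes with introns in 5 bins as grey lines. FDPS lies farthest to the left at 11.8%, and ACAT2 (25.1%), ACLY (24.0%) and FASN (30.5%) lie at similar shares with levels from 30.1 to 2407 per kb.

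SREBPs bind sterol regulatory elements near the start of their targets, often beside sites for NF-Y and Sp1, so the promoter windows were searched for the letters of these sites. RefSeq windows of 300 bases (250 before the gene start and 50 after, GRCh38.p14) were given for 29 of the 33 listed genes. ACAT2, FASN, FDFT1 and SQLE were therefore not searched, while ACACA and TM7SF2, which were not found among the rows, were. Each motif was searched on both strands and beside the same windows of 9399 protein-coding genes of the table. Where a gene had more than 1 distinct window, a match in any of them counted. The letters TCACNCCAC, a form of the sterol regulatory element, were in 1 of 29, SREBF2 itself, against 1.47% of the 9399. CCAAT, the core of NF-Y sites, was in 22 of 29 (75.9%) against 44.04%. By group it was in 13 of 15 sterol enzymes, 6 of 8 fatty acid enzymes and 3 of 6 regulators and carrier. GGGCGG, the core of Sp1 sites, was in 27 of 29 (93.1%) against 78.8%, and CACGTG, the E-box, in 5 of 29 (ELOVL5, INSIG1, LSS, SC5D and SCAP) against 13.2%. None of the 4 motifs contains another, and a match describes the letters of the window, not binding. Likewise, a window without these exact letters does not show that a gene lacks the element. Elements with other letters or outside the window were not searched.

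The SREBF2 element is shown, with the CCAAT match nearest the gene start in the 2 genes of highest level with such a match in each group, among the genes searched. Each has 10 bases on each side and the match in capitals, 5′ to 3′ on the strand of the gene. ATTGG is CCAAT read from the other strand. All are GRCh38.p14. The SREBF2 element starts 133 bases before the gene start at chr22:41832962-41832990 (plus strand), and its CCAAT match lies close by at chr22:41832989-41833013, starting 106 bases before it. The matches of DHCR7 (chr11:71448427-71448451, minus strand), MSMO1 (chr4:165327625-165327649, plus strand), SCD (chr10:100347037-100347061, plus strand) and ACSL3 (chr2:222860951-222860975, plus strand) start 48, 34, 186 and 75 bases before the gene start, and that of INSIG1 (chr7:155297698-155297722, plus strand) starts 170 bases before.
SREBF2 element: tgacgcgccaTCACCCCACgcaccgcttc
SREBF2 CCAAT: tcgctcgcccATTGGctgagatgag
DHCR7 CCAAT: tccgcctccgATTGGcaggcaatcg
MSMO1 CCAAT: ctctcgcaggCCAATaacgacagga
SCD CCAAT: ttcccttcggCCAATgacgagccgg
ACSL3 CCAAT: cgctcgcgggCCAATgggtggcagc
INSIG1 CCAAT: ccggcctcccATTGGttgcggccgc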

How the data were processed

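Poly(A) RNA of 3 control and 3 siDANCR libraries of SK-MEL-28 cells was sequenced from strand-marked, paired-end libraries. Per the submitters' processing notes, the authors used Trim Galore 0.4.4, Bowtie 1.1.2, hg19 and DESeq2. How reads were counted, with which annotation and whether by strand, was not given in the sources used here, nor was a version of DESeq2. The deposited table gives for each gene the mean of normalised counts across the 6 libraries, a signal scaled for depth by the authors, and 5 columns of their own comparison (log2 fold change, its standard error, a test statistic, p-value and adjusted p-value), which were not used, nor was a smaller sheet of 98 genes. It holds 0 columns of values per library, so the planned edgeR quasi-likelihood test of siDANCR against control was not run and no depth, replicate error or test is given.

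Here IDs were matched to GENCODE 44 lifted to GRCh37 (13161 of 13449), and means were divided by canonical transcript length. Copies were searched with BLAST+ 2.17.0 (at least 90% identity over at least 100 bases). Tables and plots were made with Python 3.11.15, pandas 2.3.3, numpy 2.4.6 and matplotlib 3.10.9, and the level calculation was tested on simulated data. Named genes were every member found, their paralogs and partners on the related list, DANCR and the markers; copies of members, genes that overlap them and the EEF1A1 pair were named after their values were seen. Members and lists were chosen with earlier results of these data known. Alternatives were other lengths, backgrounds, summaries and memberships, and ratios between genes under 5 divisors.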

Additional observations from a re-analysis of the deposited data

How the results depend on the processing

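The fatty acid median stayed above the sterol median under all alternatives run, with a ratio between 1.65 and 4.08 against 3.77. Changes of the background cannot alter this ratio, which they left at 3.77. Values are given as sterol median, fatty acid median and their ratio, then the regulator and carrier median where it moved. Per kb of coding sequence they were 649.1, 2116 and 3.26, then 895.5. Per kb of the longest transcript they were 199.3, 711.9 and 3.57. With no length scaling they were 625.1 and 2554 counts and 4.08, then 1099 counts. Geometric means gave 201.5, 608.9 and 3.02, then 312.3. Without ACAT2 and ACSL3 they were 224.9, 585.9 and 2.60. Added after seeing the data, scaling by 150-base windows inside 1 exon gave 524.2, 1796 and 3.43, then 545.1 per kb of windows. Leaving out the 6 members with a copy or an overlapping gene, also added, gave 355.5, 585.9 and 1.65. The count of members above the median of all genes was 22 to 25 of 31 under the settings that kept all members.

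The table's mean over both groups limits these data: no library value, depth or error was had, so small differences between genes cannot be ranked. The planned count tests, the filter on low counts and the leave-one-out fits were not run for this reason. No paired analysis was possible because single libraries have no column in the table.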
